A study of Homo sapiens with 8 samples.

Results

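The long arm of chromosome 1 (1q) held 4079 of the 62528 open-chromatin regions that ATAC-seq marked in 2 human multiple myeloma cell lines. ATAC-seq inserts sequencing adapters into accessible DNA with the Tn5 transposase, so the fragment count of a region, here called a peak, measures how open its chromatin was and how many copies of it the cells carried. A peak was placed on 1q when it lay on chromosome 1 and started at or after position 143000000 of GRCh38. The first member, nearest to NBPF17P, started at 143630293, and the last peak below the threshold, nearest to RP11-344P13.1, started at 125114368, so no peak lay close to the boundary. That first member had 4.51 CPM (counts scaled to a library of 1e6) in JJN3 and 3.62 CPM in KMS11 under DMSO, and the peak outside had 3.76 CPM in JJN3 and 1.29 CPM in KMS11.

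JJN3 and KMS11 are established lines grown from malignant plasma cells, and both are known for an immunoglobulin translocation that activates MAF. Each line was treated for 48 h with 200 nM pomalidomide, with 40 nM GNE-781, with both agents at those doses, or with DMSO alone, and gave 1 library for each treatment. Pomalidomide binds the ubiquitin ligase receptor cereblon and sends the lymphoid transcription factors IKZF1 and IKZF3 to degradation. GNE-781 blocks the bromodomain of the histone acetyltransferases EP300 and CBP, which act at enhancers. With 1 library for each line and treatment, a drug was compared with DMSO across both lines with the line as a block. Every p-value rests on these 8 libraries alone. In the fits for peaks and bins the spread was largely borrowed from the other peaks or bins. The series' design also names cells with BATF or eGFP overexpression, and the labels of these 8 libraries name neither. Each line stands here as a single cell line, not as a sample of patients.

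Extra copies of 1q are among the most frequent secondary lesions of myeloma. The gained region usually includes 1q21, which carries CKS1B (a cell-cycle kinase subunit), MCL1 (an anti-apoptotic BCL2 family member on which plasma cells depend), ILF2, ARNT and the interleukin-6 receptor gene IL6R. The arm also carries the SLAM and Fc receptor-like surface genes of lymphocytes, the epidermal differentiation genes, mitotic genes such as ASPM, NEK2 and CENPF, and the tandem array of 5S ribosomal RNA genes that RNA polymerase III transcribes. DNA copy number was not measured in these libraries, so copy number and accessibility per copy cannot be told apart in any ratio between the lines.

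The promoters below are shown because each overlapped a 1q peak that changed with treatment. Of the 5, 4 windows lay wholly inside their peak, and the DDR2 window lay inside it with its last 32 bases alone. The sequences are RefSeq windows of 300 bases on GRCh38.p14, from 250 bases before to 50 bases after the gene start, written 5′ to 3′ on the gene's strand. The capitals in LINC01132 (a long non-coding RNA, chr1:234723792-234724091, plus strand) mark TGATTCA, a match to the searched pattern TGANTCA, where N is any base. That pattern includes TGAGTCA and TGACTCA, the core that AP-1 dimers of FOS, JUN and BATF proteins recognise. TGATTCA differs from that core in its middle base.
LINC01132: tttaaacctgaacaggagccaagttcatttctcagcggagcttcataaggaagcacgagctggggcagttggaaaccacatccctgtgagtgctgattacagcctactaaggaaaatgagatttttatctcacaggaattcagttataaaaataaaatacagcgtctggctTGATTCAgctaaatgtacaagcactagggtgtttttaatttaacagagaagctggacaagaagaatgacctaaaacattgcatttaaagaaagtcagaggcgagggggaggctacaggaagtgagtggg
The capitals in DDR2 (a collagen-binding receptor tyrosine kinase, chr1:162630613-162630912, plus strand) mark the AP-1 core TGAGTCA, which here lay outside the peak.
DDR2: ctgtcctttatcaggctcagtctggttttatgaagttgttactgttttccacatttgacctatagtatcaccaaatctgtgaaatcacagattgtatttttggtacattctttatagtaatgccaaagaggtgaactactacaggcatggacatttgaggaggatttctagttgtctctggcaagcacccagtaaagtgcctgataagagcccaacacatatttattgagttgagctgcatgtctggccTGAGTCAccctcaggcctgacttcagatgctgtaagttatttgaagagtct
The capitals in KCNN3 (a calcium-activated potassium channel, chr1:154859827-154860126, minus strand) mark 1 AP-1 core and 2 copies of the octamer ATGCAAAT, the element read by the B-lineage factor POU2F2 with its coactivator POU2AF1. The octamer was added to the motif list after this sequence had been read. The KCNN3 peak, at chr1:154859811-154860901, was counted as inside the gene and had a log2 change of -0.65 with both agents. Of 26 peaks nearest to KCNN3, 2 rose and 1 fell with both agents.
KCNN3: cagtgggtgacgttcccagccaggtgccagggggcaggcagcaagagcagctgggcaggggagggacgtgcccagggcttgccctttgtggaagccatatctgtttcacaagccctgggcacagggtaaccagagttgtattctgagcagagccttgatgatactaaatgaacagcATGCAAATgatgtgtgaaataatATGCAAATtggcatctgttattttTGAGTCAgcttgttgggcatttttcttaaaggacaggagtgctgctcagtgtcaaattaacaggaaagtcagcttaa
The capitals in LAX1 (a membrane adaptor of lymphocyte signalling, chr1:203764933-203765232, plus strand) mark the ETS core CCGGAA on the opposite strand.
LAX1: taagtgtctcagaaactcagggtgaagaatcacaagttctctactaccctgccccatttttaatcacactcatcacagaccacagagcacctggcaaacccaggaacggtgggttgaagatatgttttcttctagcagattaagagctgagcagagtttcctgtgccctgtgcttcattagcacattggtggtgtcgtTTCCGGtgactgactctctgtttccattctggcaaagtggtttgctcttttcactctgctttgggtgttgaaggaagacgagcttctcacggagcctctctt
The capitals in ASPM (a spindle pole protein of dividing cells, chr1:197146620-197146919, minus strand) mark the GC box GGGCGG.
ASPM: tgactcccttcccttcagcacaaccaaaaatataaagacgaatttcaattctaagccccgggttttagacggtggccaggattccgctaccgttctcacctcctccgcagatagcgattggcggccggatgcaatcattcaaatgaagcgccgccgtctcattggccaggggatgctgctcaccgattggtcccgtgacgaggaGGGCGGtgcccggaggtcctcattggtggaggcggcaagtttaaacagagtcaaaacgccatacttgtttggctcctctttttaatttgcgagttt

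Both strands were searched. TGANTCA was found in 6.04% of the 844 RefSeq promoters that overlapped a tested 1q peak and in 7.71% of all 35116 RefSeq promoters. CCGGAA was found in 24.3% of the 1q set and in 17.2% of all, GGGCGG in 65.2% and 45.0%, and ATGCAAAT in 1.9% and 1.77%. Among the 8 RefSeq promoters that overlapped a 1q peak lower with the combination, 2 held TGANTCA, 1 held CCGGAA, 2 held GGGCGG and 1 held ATGCAAAT. A match says only that these letters stand in the window. The ASPM window was 52.7% G and C with 20 CpG dinucleotides, while the DDR2 window was 41.0% G and C with 0 CpG dinucleotides.

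Library totals over all peaks ran from 1366628 to 3218581 counts in JJN3 and from 2981408 to 5435673 counts in KMS11. The shallowest was the JJN3 DMSO library, which had 0 counts in 29 of the 1q peaks. No 2 libraries held identical values. Of 10 plasma cell markers, 9 had a promoter peak, at 25.0 to 28.8 CPM per marker in JJN3 and 21.7 to 25.5 CPM in KMS11. TNFRSF17, the gene of the plasma cell antigen BCMA, had none. Markers of B, T and NK, myeloid, stromal and endothelial, and erythroid cells averaged at most 8.94 CPM per marker in any library. These averages count a marker without a promoter peak as 0, as was the case for CD3D and LYZ. Single promoters stood higher: CD14, the 1 myeloid marker with a promoter peak, had 43.2 to 67.6 CPM in JJN3 and 23.8 to 32.0 CPM in KMS11.

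Of the 4079 peaks on 1q, 892 (21.9%) lay within 1000 bp of a gene start and are called promoter peaks, 1727 lay inside genes and 1460 between genes. Over all chromosomes the promoter share was 25.5%, and on the rest of chromosome 1 it was 33.1% of 2670 peaks. The 1q peaks were nearest to 1362 different genes and had a median width of 425 bp. A mean of at least 2 CPM was reached by 4070 of them, and these were tested among 62234 peaks of the whole table.

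Summed over its promoter peaks, 1q was lower in JJN3 than in KMS11 in every treatment. JJN3 had 41333 CPM with pomalidomide, 37463 CPM with GNE-781, 36306 CPM with the combination and 38367 CPM with DMSO, against 44582, 44108, 43148 and 44740 CPM in KMS11 in the same order. The libraries of the lines did not overlap. The mean log2 level was 15.23 ± 0.08 in JJN3 and 15.43 ± 0.02 in KMS11 (SD, n = 4 libraries each), a difference of -0.20 (0.868-fold), with a two-sided exact permutation p of 0.0286, the smallest that 4 libraries against 4 can give. That p was reached by 20 of the 24 arms and chromosomes, so it does not set 1q apart. Paired by treatment, an alternative chosen after seeing the data, exact sign flips over the 4 pairs gave a two-sided p of 0.125, the smallest they can give. Among the 24 arms and chromosomes, counting 1p and 1q apart, 1q ranked 8 from the lowest JJN3 to KMS11 ratio. The other arm of chromosome 1 stood at the opposite end, with a difference of 0.73, the highest of the 24.

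The arm did not differ between the lines as 1 block. Promoter-peak counts were summed in bins of 5 Mb, and the 562 bins of the genome with at least 5 promoter peaks were tested together. Their spread was taken from all bins, so a bin's SE and p do not reflect the spread of its own libraries. On 1q, 3 of 22 bins were higher in JJN3 and 16 were lower at an adjusted p under 0.05. Over the genome 35.2% of bins were higher and 41.3% lower, and 76.5% passed in either direction. The median log2 ratio was -0.45 on 1q and -0.03 over all bins. A called bin was thus common everywhere, and the bins of 1q are described by their order along the arm.

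Close to the centromere, in the 13 promoter peaks before 145 Mb, JJN3 was lower by a log2 ratio of -0.47 ± 0.09 (SE). A single peak held 37.1% of that bin's counts, and this stretch is rich in duplicated genes of the NBPF family, where reads can be split between near-identical copies. The next bins, which hold 1q21, were higher in JJN3. The log2 ratio was 0.26 ± 0.06 at 145 to 150 Mb and 0.21 ± 0.06 at 150 to 155 Mb, with 62 of 77 and 75 of 107 promoter peaks higher in JJN3. It was 0.05 ± 0.06 at 155 to 160 Mb and 0.07 ± 0.06 at 160 to 165 Mb, where neither bin passed, then 0.29 ± 0.06 at 165 to 170 Mb and 0.01 ± 0.06 at 170 to 175 Mb.

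Beyond 175 Mb all 15 bins were lower in JJN3, though not under every setting. The log2 ratio was -0.23 ± 0.07 at 175 to 180 Mb, -0.34 ± 0.06 at 180 to 185 Mb and -0.61 ± 0.09 at 185 to 190 Mb. It lay between -0.34 and -0.58 in the bins from 190 to 210 Mb and was -0.70 ± 0.07 at 210 to 215 Mb. From 215 to 250 Mb the 7 bins lay between -0.60 and -1.09. The lowest was 215 to 220 Mb at -1.09 ± 0.11, a promoter signal 2.13-fold lower in JJN3, and all 9 of its promoter peaks were lower. That bin ranked 7 from the lowest of the 562 bins in the genome, and 220 to 225 Mb, at -1.01 ± 0.07, ranked 10. The call at 175 to 180 Mb was lost without the JJN3 DMSO, KMS11 GNE-781 or KMS11 combination library, and that at 190 to 195 Mb without the JJN3 DMSO, KMS11 DMSO or KMS11 GNE-781 library. Without JJN3 DMSO their log2 ratios were -0.15 and -0.17 (adjusted p = 0.087 and 0.146). By the median over promoter peaks, in place of their sum, the 185 to 190 Mb bin stood at 0.058.

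**Figure D1:**
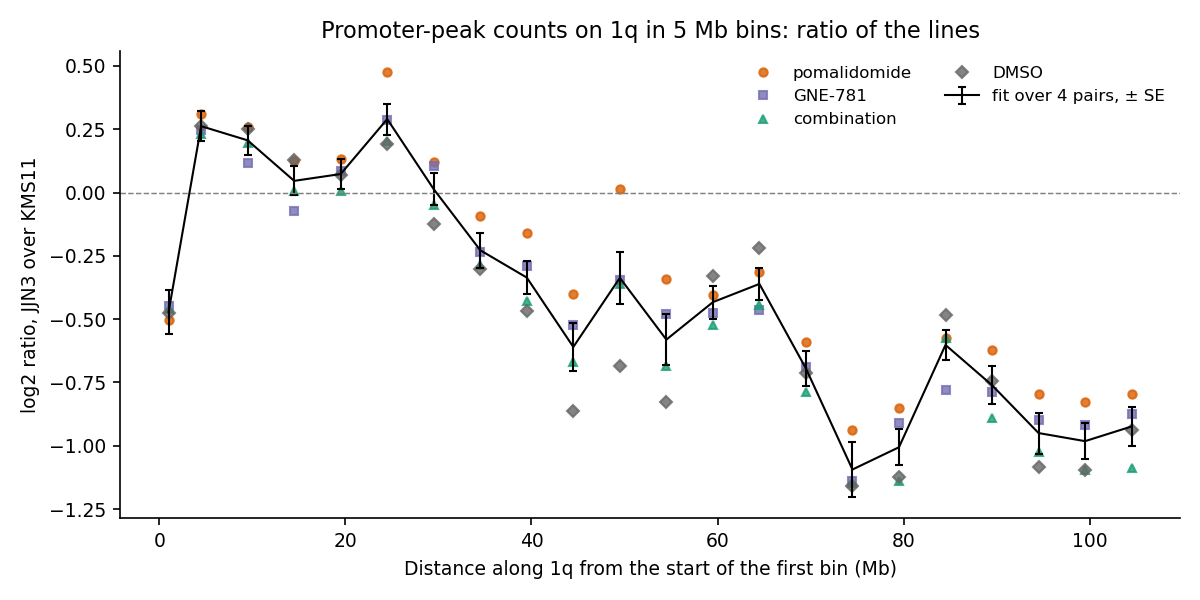
Ratio of JJN3 to KMS11 in promoter-peak counts (log2, y axis) in the 22 bins of 5 Mb along 1q, by distance from the start of the first bin (Mb, x axis). Coloured points are the 4 treatment pairs, and the black line is the fit over them with its standard error. The ratio lies above 0 in the 1q21 bins and falls to about -1 toward the end of the arm.

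The treatment pairs gave nearly the same profile. All 4 pairs were below 0 in 14 of the 15 bins beyond 175 Mb, and the spread between pairs was widest in the exception, at 190 to 195 Mb. There the log2 ratio was 0.01 with pomalidomide, -0.34 with GNE-781, -0.36 with the combination and -0.69 with DMSO, in a bin of 11 promoter peaks. The pairs ran from -0.86 to -0.40 at 185 to 190 Mb and from -0.83 to -0.34 at 195 to 200 Mb, with DMSO the lowest in both. In the 215 to 220 Mb bin the pairs ran from -1.16 to -0.94.

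The ratio changed between neighbouring bins at 12 of 21 boundaries (adjusted p under 0.05 in limma), against 51.4% of the 514 boundaries of the genome, so steps were about as common on 1q as elsewhere. The largest rise was 0.73 ± 0.05 at 145 Mb. The largest falls were -0.40 ± 0.04 at 215 Mb, -0.34 ± 0.05 at 210 Mb and -0.28 ± 0.05 at both 170 Mb and 185 Mb. At 225 Mb the ratio rose by 0.40 ± 0.08 into the bin that holds the 5S ribosomal RNA genes. Without the peaks of those genes, an alternative chosen after seeing the data, that bin stood at -0.82 ± 0.06 in place of -0.60 ± 0.06.

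Single peaks followed the same profile. At an adjusted p under 0.05 and at least a 2-fold difference, 244 peaks on 1q were higher in JJN3 and 836 were lower. That is 6% and 20.5% of the 4070 tested, against 16.1% and 15.8% of all peaks, and 31.9% of all peaks passed in either direction. The median log2 ratio of the 1q peaks was -0.31, against -0.08 over all peaks. Split at 175 and 215 Mb, positions chosen after the profile was seen, 9.44% of the 1568 peaks before 175 Mb were higher in JJN3 and 6.25% were lower. From 175 to 215 Mb the shares were 4.58% and 20.0% of 1486 peaks, and beyond 215 Mb they were 2.76% and 43.4% of 1016 peaks.

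**Figure D2:**
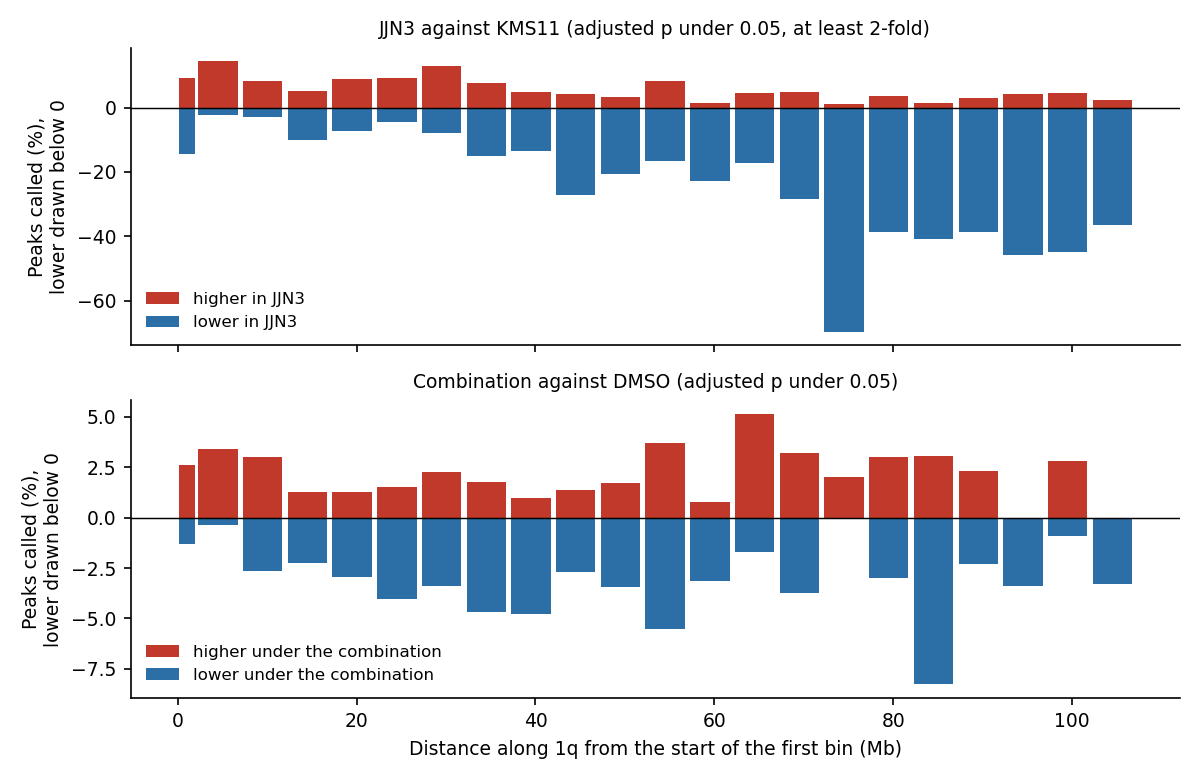
Share of the tested 1q peaks that were called (%, y axis) in each 5 Mb bin by distance along the arm (Mb, x axis), with higher calls above 0 and lower calls below 0. The upper panel compares JJN3 with KMS11, where 69 of 99 peaks in the 215 to 220 Mb bin were lower. The lower panel compares the combination with DMSO, where 19 of 230 peaks in the 225 to 230 Mb bin were lower.

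The promoters with the largest ratios below 0 had few counts in JJN3. TRIM58, a ubiquitin ligase of the red cell lineage, had 3.33, 3.85, 3.39 and 10.5 CPM in JJN3 with pomalidomide, GNE-781, the combination and DMSO, against 88.3, 92.2, 97.4 and 102 CPM in KMS11. Its log2 ratio was -4.3 (adjusted p = 1.47e-27). DNAH14 (a dynein heavy chain), FMN2 (a formin that nucleates actin), the longer ESRRG promoter at chr1:217089416-217090483 (an orphan nuclear receptor), GPR137B (a lysosomal membrane protein) and PLD5 were lower by log2 ratios of -4.44, -3.74, -3.48, -3.39 and -3.22. All 6 lie beyond 215 Mb, and each of their ratios was more than 2 log2 units below that of its bin.

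Other promoters were higher in JJN3. LINC01347, between 240 and 245 Mb, had 17.5 to 25.6 CPM in JJN3 and 2.57 to 4.14 CPM in KMS11, a log2 ratio of 2.72 inside a bin at -0.98. LCE3A, a late cornified envelope gene of the epidermis, had 58.6 to 105 CPM in JJN3 and 11.4 to 21.3 CPM in KMS11 (2.57). CD247, the zeta chain of the T cell receptor, had 14.7 to 20.8 CPM in JJN3 at its start and 1.78 to 3.88 CPM in KMS11 (2.65). CD247 was the only T and NK cell marker with a promoter peak, since CD3D, CD3E, CD3G and CD2 had none. The small nuclear RNA gene RNVU1-10 (2.65) belongs to a family of near-identical copies, so its ratio is uncertain.

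At the 1q21 genes the promoters were mostly level or higher in JJN3. MCL1 had 78.3, 80.1, 73.2 and 72.9 CPM in JJN3 with pomalidomide, GNE-781, the combination and DMSO, against 46.3, 51.4, 56.8 and 40.4 CPM in KMS11. Every JJN3 library was above every KMS11 library, and the log2 ratio was 0.65 (adjusted p = 2.92e-05), under the 2-fold limit. A second and weaker MCL1 promoter peak, at chr1:150578626-150579201, had 5.26 to 12.7 CPM in JJN3 and 6.47 to 13.9 CPM in KMS11 without passing (-0.35, adjusted p = 0.25). SETDB1, a histone H3 lysine methyltransferase gained with 1q21, had 47.4 to 55.8 CPM in JJN3 and 26.6 to 32.0 CPM in KMS11 (0.81). ARNT, the partner of the hypoxia factors, was at 0.37 and VPS45 at 0.44.

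ILF2, a DNA repair and splicing regulator, did not separate the lines, with 93.1 to 106 CPM in JJN3 and 84.6 to 107 CPM in KMS11 (0.00). PSMD4, a proteasome subunit, and UBE2Q1, a ubiquitin-conjugating enzyme, were at 0.28 and 0.18, and neither passed. The 2 promoter peaks of ADAR, the RNA editing enzyme, were at -0.03 and -0.26 without passing. Over the 20 promoter peaks of 16 such genes the median log2 ratio was 0.25, and 1, a PDZK1 promoter at 1.04, passed the 2-fold limit. It fell under that limit, to as low as 0.92, without the JJN3 DMSO, JJN3 GNE-781, KMS11 DMSO or KMS11 GNE-781 library. CKS1B, PYGO2, UBAP2L and CHD1L were nearest to no peak in the table. By position the CKS1B promoter lay under a peak assigned to SHC1 (chr1:154973704-154975226), at -0.13 between the lines and 0.00 with the combination (adjusted p = 0.33 and 1.00). The PYGO2 promoter, also under a peak assigned to SHC1, was lower in JJN3 by -0.38 (adjusted p = 0.0121), and the peaks over the UBAP2L and CHD1L promoters were at 0.11 to 0.24 without passing.

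Of the 19 promoter peaks of the SLAM, Fc receptor-like and CD1 list, 1 was higher in JJN3 and 1 lower. The interferon and inflammation list had 1 higher and 4 lower of 20, and the complement and adhesion list 3 higher and 1 lower of 13. Over all promoter peaks 11.1% were higher and 10.6% lower. One of 3 promoter peaks of IFI16, a nuclear DNA sensor, had 18.0 to 22.0 CPM in JJN3 and 3.65 to 5.69 CPM in KMS11 (2.12), and the other two were at 0.07 and 0.05. FCGR2C, a low-affinity Fc gamma receptor with close copies next to it, was at 1.25. CR2, the complement receptor CD21, had 10.7 to 20.4 CPM in JJN3 and 32.2 to 46.8 CPM in KMS11 (-1.28). TLR5, the flagellin receptor, had 23.3 to 43.6 CPM in JJN3 and 94.4 to 122 CPM in KMS11 (-1.67). The plasma cell surface antigen SLAMF7 had 4.33 to 10.3 CPM in JJN3 and 7.66 to 10.9 CPM in KMS11 at its upstream promoter peak without passing (-0.54, adjusted p = 0.10). Its neighbour LY9 was at -0.76.

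Of the 147 peaks of transcription factor genes, the longest list, 43 (29.3%) were lower in JJN3 and 7 (4.76%) higher, with a median of -0.46. Over all 1q peaks 20.5% were lower and 6% higher, and over all chromosomes 15.8% and 16.1%. PROX1, a homeobox regulator of lymphatic endothelium, had 3.67 to 5.82 CPM in JJN3 and 20.1 to 36.4 CPM in KMS11 (-2.50). KDM5B, a histone H3 lysine 4 demethylase, was at -1.31, and ZBTB18, a transcriptional repressor, had 72.7 to 97.5 CPM in JJN3 and 190 to 216 CPM in KMS11 (-1.17). BATF3, an AP-1 partner, was at -0.98 and the main ATF3 promoter at -0.72, both in bins that were lower as a whole. The median was 0.21 for the 43 peaks of 1q21 gain genes, 0.13 for the 38 of epidermal differentiation genes and -0.32 for those of membrane signalling and kinase genes. The first 2 of these lists lie near 1q21, in the stretch where bins were level or higher in JJN3.

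No 5 Mb bin moved as a whole with either agent alone, on 1q or elsewhere (0% of 562 bins in edgeR, with 1 of the 22 1q bins at an unadjusted p under 0.05 for pomalidomide and 0 for GNE-781). With the combination 1 of the 562 bins passed (0.178%), and it lay on 1q, at 225 to 230 Mb, with a log2 change of -0.36 ± 0.09 (adjusted p = 0.0132). The call was lost without the JJN3 DMSO, JJN3 combination, KMS11 DMSO or KMS11 combination library (-0.30, -0.38, -0.44 and -0.34).

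That bin holds the 5S ribosomal RNA array. Its genes, RNA5S1 to RNA5S17, gave 14 promoter peaks over 38.2 kb at chr1:228608499-228646655, with a median of 2.14 kb between neighbouring peak centres. They were singled out after their values had been seen. Summed over the 14 peaks, the array had 1011 CPM with pomalidomide, 1007 CPM with GNE-781 and 918 CPM with the combination, against 1421 CPM with DMSO in JJN3. In KMS11 it had 1268, 1416 and 801 CPM, against 1539 CPM with DMSO. Every treated library was below the DMSO library of its line, and the combination was the lowest in both.

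With the combination 12 of the 14 peaks fell, by log2 changes of -0.64 to -0.95, where 2.67% of all peaks and 0.886% of all promoter peaks fell. The other two, RNA5S10 and RNA5S16, were at -0.53 and -0.60 (adjusted p = 0.12 and 0.083). The peak over the start of RNA5S1 at chr1:228610154-228611166 had 110, 106 and 77.1 CPM with pomalidomide, GNE-781 and the combination in JJN3, against 133 CPM with DMSO. The KMS11 libraries had 126, 146 and 76.9 CPM, against 159 CPM with DMSO. Its log2 change with the combination was -0.93 ± 0.17 (adjusted p = 2.82e-04). With pomalidomide alone the 14 peaks had a median of -0.39 and with GNE-781 alone -0.29, and 0 peaks passed in either. Compared directly, 0 of the 14 differed between the combination and pomalidomide alone, and 2 differed between the combination and GNE-781 alone. The calls therefore do not set the combination apart from pomalidomide alone.

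The repeats are near identical, so reads can be placed in any copy, and the 14 peaks are not 14 independent observations. All 12 calls were lost without the KMS11 combination library, 5 without the KMS11 DMSO library and 1 without the JJN3 DMSO library. The 61 other promoter peaks of the bin had a median of -0.11 with the combination, with 3 lower and 1 higher, and without the 5S peaks the bin stood at -0.14 ± 0.09 (adjusted p = 0.94). Between the lines the median log2 ratio of the array was -0.06, against -0.86 for the 61 other promoter peaks. Of 30 peaks on 1q nearest to 5S pseudogenes, 3 fell and 1 rose with the combination.

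**Figure D3:**
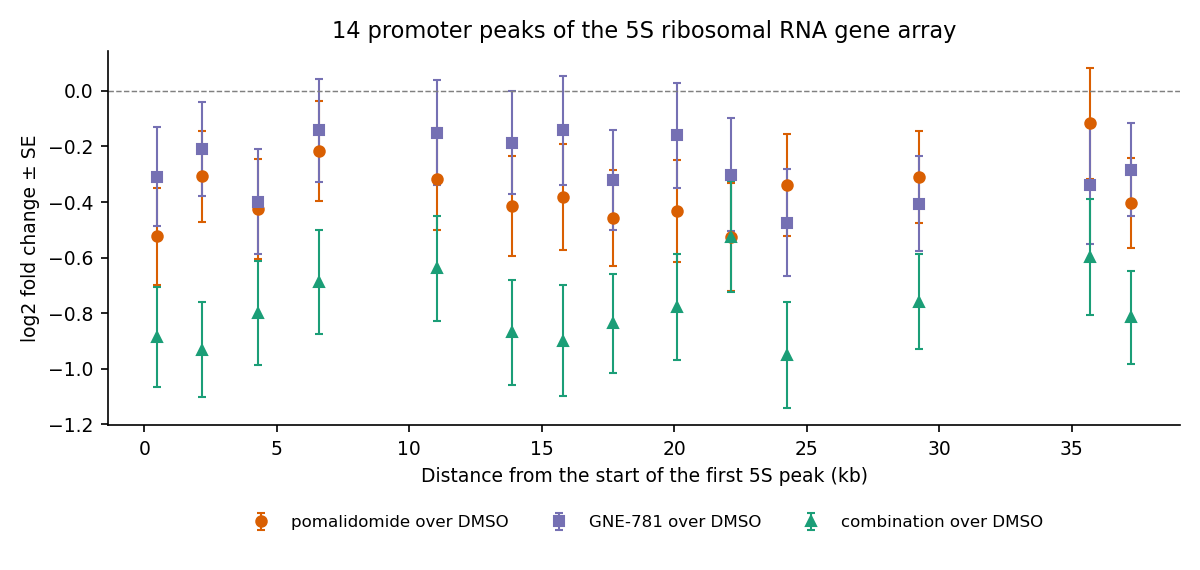
Log2 change against DMSO with its standard error (y axis) for the 14 promoter peaks of the 5S ribosomal RNA array, by distance from the start of the first peak (kb, x axis), with 1 symbol for each treatment. The combination lies between -0.53 and -0.95 at every peak, and pomalidomide and GNE-781 alone lie between -0.53 and -0.12.

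Pomalidomide raised 58 peaks on 1q and lowered 10 of the 4070 tested, or 1.67% in all, against 1.25% of all peaks (1.03% higher and 0.228% lower). That share is close to the background. Of the 68, 66 had the same sign in both lines, which a fit over both lines favours. The count rested on the KMS11 libraries: it was 5 without KMS11 DMSO and 9 without KMS11 pomalidomide, and DESeq2 called 10. ITGA10 and LINC01031 were the 2 of 33 named peaks whose call held whichever library was left out.

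The clearest rise was inside the gene of ITGA10, a collagen-binding integrin alpha chain, at chr1:145891780-145892558, 17532 bp from its start. It had 48.3 CPM with pomalidomide, 18.0 CPM with GNE-781 and 40.7 CPM with the combination, against 15.0 CPM with DMSO in JJN3. The values in KMS11 were 59.2, 20.7 and 65.4 CPM, against 15.5 CPM with DMSO. The libraries with pomalidomide did not overlap those without it, and the log2 change was 1.86 ± 0.23 (adjusted p = 1.46e-06) with pomalidomide and 1.86 ± 0.23 (adjusted p = 3.13e-07) with the combination. The intergenic peak nearest to LINC01031 had 30.0, 10.9 and 27.2 CPM, against 6.01 CPM with DMSO in JJN3, and 15.4, 7.12 and 20.7 CPM, against 4.66 CPM with DMSO in KMS11. It rose by 1.99 ± 0.34 with pomalidomide and by 2.13 ± 0.33 with the combination.

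Rises were also measured inside BCL9, RP1-127D3.4, HMCN1 and CD34. BCL9 is a coactivator of beta-catenin in WNT signalling. Its internal peak at chr1:147622650-147623216 had 15.7, 5.77 and 31.0 CPM with pomalidomide, GNE-781 and the combination, against 6.76 CPM with DMSO in JJN3. KMS11 had 25.7, 5.82 and 29.6 CPM, against 5.95 CPM with DMSO. It rose by 1.78 ± 0.33 with pomalidomide and by 2.3 ± 0.32 with the combination, while GNE-781 alone left it at -0.08. The BCL9 promoters at 147540863 and 147599231 did not pass, at 0.30 and 0.24 with pomalidomide.

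CD34, a sialomucin of haematopoietic progenitors and endothelium, had an internal peak at 21.7 and 11.6 CPM with pomalidomide in JJN3 and KMS11, against 5.26 and 5.43 CPM with DMSO (1.5 ± 0.36). TRAF5, a signalling adaptor of tumour necrosis factor receptors, had an internal peak that rose by 2.03 ± 0.43, from counts carried by KMS11, where it had 21.2 CPM with pomalidomide against 3.88 CPM with DMSO. The same peak had 5.33 CPM with pomalidomide against 3.01 CPM with DMSO in JJN3, and without the KMS11 pomalidomide library its log2 change was 1.03 and its call was lost. The NUAK2 locus, of an AMPK-related kinase, had 2 of its 7 peaks higher with pomalidomide and 3 higher with the combination, at log2 changes of 0.97 to 1.51.

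At gene starts, 9 of the 892 promoter peaks rose with pomalidomide and 0 fell, against 0.459% of all promoter peaks that rose. VASH2, a vasohibin that trims tubulin tails, had 21.7 CPM with pomalidomide against 11.3 CPM with DMSO in JJN3 and 26.4 against 5.95 CPM in KMS11 (1.64 ± 0.32). LINC01132, whose TGANTCA match is shown above, had 75.6 CPM against 46.6 CPM with DMSO in JJN3 and 132 against 65.5 CPM in KMS11 (0.88 ± 0.18). A TPM3 promoter (1.12), 2 peaks at LMNA starts (0.77 and 0.76), FAM63A (0.85), OTUD7B (0.71), ADAMTSL4-AS1 (0.74) and GS1-115G20.2 (1.17) also rose. The VASH2 change was 1.01 without the KMS11 pomalidomide library, that of FAM63A 0.55 without KMS11 DMSO and that of OTUD7B 0.42 without JJN3 DMSO, each with its call lost. TPM3 encodes a tropomyosin, LMNA the nuclear lamins A and C, and FAM63A and OTUD7B are deubiquitinases.

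The 10 falls with pomalidomide lay away from gene starts. The peak beyond PLA2G4A, the cytosolic phospholipase that frees arachidonic acid, had 8.33 CPM with pomalidomide against 24.8 CPM with DMSO in JJN3 and 24.7 against 61.1 CPM in KMS11 (-1.39 ± 0.24). Another peak inside PLA2G4A rose by 1.51 ± 0.35, so 1 of its 14 peaks rose and 1 fell. Peaks nearest to NOS1AP (-1.22), C1orf27 (-1.32) and LPGAT1 (-1.06) fell as well.

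**Figure D4:**
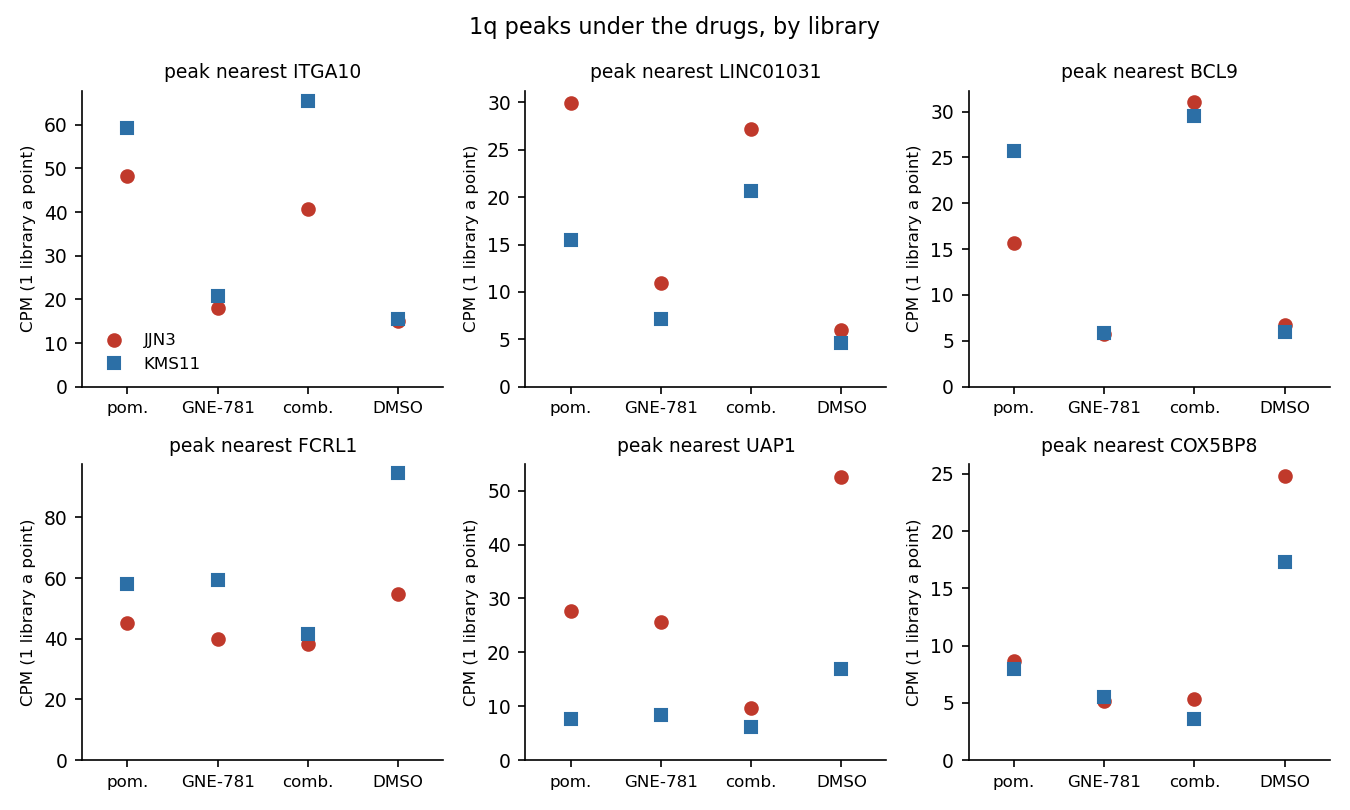
Level of 6 single 1q peaks (CPM, y axis) in each of the 8 libraries, by treatment (x axis), with JJN3 as circles and KMS11 as squares. The peaks nearest to ITGA10, LINC01031 and BCL9 are high in the libraries with pomalidomide, and those nearest to FCRL1, UAP1 and COX5BP8 are lower with the combination than with DMSO.

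GNE-781 alone changed 1 peak on 1q (0.0246%), against 0.0209% of all peaks, and 286 peaks of the arm were at an unadjusted p under 0.05 (7.03%, against 6.58% of all peaks). DESeq2 called 0. That peak, intergenic and nearest to COX5BP8, a cytochrome oxidase pseudogene, had 5.13 CPM with GNE-781 against 24.8 CPM with DMSO in JJN3 and 5.50 against 17.3 CPM in KMS11. It fell by 1.89 ± 0.37 on the log2 scale (adjusted p = 0.0289). It also fell with pomalidomide (-1.29 ± 0.32) and with the combination (-2.25 ± 0.36). Its GNE-781 call was lost when any 1 of 6 libraries was left out, all but the 2 with pomalidomide alone.

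The combination raised 91 peaks on 1q and lowered 127, or 5.36% of those tested, against 4.79% of all peaks (2.11% higher and 2.67% lower). Of the 218, 212 had the same sign in both lines, which the fit again favours. The count was 30 without the KMS11 combination library, 36 without KMS11 DMSO and 108 without JJN3 combination, and DESeq2 called 44. Among 63 named peaks, those of BCL9, COX5BP8 and UAP1 kept their call whichever library was left out. The comparison shares its DMSO libraries with that of pomalidomide alone. The 58 peaks higher with pomalidomide had a median of 1.2 there and 0.99 with the combination, and the 127 lower with the combination had a median of -1.09 there, -0.55 with pomalidomide and -0.63 with GNE-781.

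Among promoter peaks on 1q, 39 of 892 passed with the combination (4.37%), against 1.69% of all promoter peaks, with 11 higher and 28 lower. Of the 28, 12 were the 5S peaks and 2 lay at the 5S pseudogenes RNA5SP19 and RNA5SP162. The other 14 included TRAF3IP3, LAX1, SH2D2A, DDR2, ASPM, HDGF and TOR3A. None of the 19 promoter peaks of the SLAM, Fc receptor-like and CD1 list was among them. TRAF3IP3, an adaptor of developing lymphocytes, had 37.3, 27.6 and 23.3 CPM with pomalidomide, GNE-781 and the combination, against 45.1 CPM with DMSO in JJN3. In KMS11 it had 30.9, 24.6 and 22.1 CPM, against 38.6 CPM with DMSO (-0.86, adjusted p = 0.0103).

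LAX1, whose ETS core is shown above, had 20.8 CPM with the combination against 40.6 CPM with DMSO in JJN3 and 21.7 against 34.2 CPM in KMS11 (-0.77, adjusted p = 0.0363). SH2D2A, an adaptor of T cell signalling, had 29.6 against 51.9 CPM in JJN3 and 27.4 against 40.6 CPM in KMS11 (-0.67, adjusted p = 0.0459). The SH2D2A call was lost without the JJN3 DMSO, JJN3 combination, KMS11 DMSO, KMS11 GNE-781 or KMS11 combination library. The peak assigned to RP3-455J7.4, which covers the RefSeq start of RCSD1, a lymphoid actin-capping regulator, fell by 0.94 on the log2 scale. DDR2 had 17.9 against 38.3 CPM in JJN3 and 4.81 against 10.9 CPM in KMS11 (-1.13 ± 0.30). This peak was also higher in JJN3 than in KMS11 (2.04). Its combination call was lost without the JJN3 combination, KMS11 DMSO or KMS11 combination library. A second DDR2 promoter peak, at chr1:162633096-162633571, had 15.0 against 27.1 CPM in JJN3 and 7.66 against 7.76 CPM in KMS11. It did not pass (-0.43). LEFTY2, a secreted inhibitor of NODAL signalling, and TOR3A, an endoplasmic reticulum ATPase, fell by 0.94 and 0.56.

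ASPM was the 1 promoter among 16 of the mitosis and replication list that passed, with 42.0, 37.8 and 21.3 CPM with pomalidomide, GNE-781 and the combination, against 45.8 CPM with DMSO in JJN3. The KMS11 libraries had 62.2, 48.5 and 53.6 CPM, against 83.6 CPM with DMSO (-0.78 ± 0.20, adjusted p = 0.0119). The change was -0.55 without the JJN3 combination library, where its call was lost as it was without KMS11 DMSO, and -1.28 without the KMS11 combination library. The promoters of KIF14 (a kinesin of cytokinesis), NEK2 (a centrosome kinase), UBE2T and EXO1 were at -0.66, -0.52, -0.52 and -0.43 without passing. These were examples chosen after their values were seen, and they do not stand for the other promoters of the list. Over the 57 peaks of the mitosis and replication list, 16 of them promoter peaks, the median was 0.00 and 1 fell.

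Among the 11 promoter peaks that rose with the combination was a start inside IL6R, the interleukin-6 receptor on which plasma cell growth depends. At chr1:154453551-154454151 it had 18.0, 12.2 and 31.5 CPM with pomalidomide, GNE-781 and the combination, against 6.01 CPM with DMSO in JJN3. The values in KMS11 were 10.3, 11.3 and 13.4 CPM, against 6.21 CPM with DMSO. It rose by 1.61 ± 0.34 (adjusted p = 0.00196), with pomalidomide alone at 1.03 ± 0.35 (adjusted p = 0.16), and its call was lost without the JJN3 DMSO or JJN3 combination library. The other called IL6R peaks went both ways, one rising by 0.64 and one falling by 1.19. IL6R gave the single promoter call among the 20 promoter peaks of the 1q21 gain list, and those of MCL1, ARNT, ILF2 and SETDB1 lay between 0.00 and 0.28.

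Away from promoters, the larger rises included peaks at PTPN14, U3, RP11-372M18.2 and RP1-127D3.4. U3 is a multi-copy small nucleolar RNA, so its value is uncertain. The peak inside PTPN14, a tyrosine phosphatase that restrains YAP, had 1.00, 1.92 and 7.27 CPM with pomalidomide, GNE-781 and the combination, against 3.01 CPM with DMSO in JJN3. KMS11 had 4.72, 2.91 and 18.7 CPM, against 2.07 CPM with DMSO (2.64 ± 0.49). It was also the 1 peak of 62234 called higher with the combination than with pomalidomide alone, by 2.15 on the log2 scale. Its combination call was lost without the KMS11 combination library and without KMS11 DMSO, where its change was 1.22. The U3 change was 1.24 without the KMS11 combination library, and the calls of U3, RP11-372M18.2 and WNT3A were lost without either of the same libraries. WNT3A rose by 2.13 ± 0.47 at a peak of at most 12.5 CPM.

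The larger falls included peaks at CGN, COX5BP8, LINC01221, RP11-469A15.2 and UAP1. The peak inside UAP1, an enzyme of amino-sugar synthesis, had 27.7, 25.6 and 9.70 CPM with pomalidomide, GNE-781 and the combination, against 52.6 CPM with DMSO in JJN3. In KMS11 it had 7.72, 8.41 and 6.23 CPM, against 16.8 CPM with DMSO (-1.87 ± 0.30, adjusted p = 3.04e-05). Each agent alone was below DMSO and the combination was the lowest in both lines. The LINC01221 change was -1.03 without the KMS11 combination library, in place of -2.22, and its call was lost.

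The SLAM, Fc receptor-like and CD1 list had 1 peak higher and 2 lower of 70 with the combination. FCRL6, an Fc receptor-like protein of cytotoxic lymphocytes, had the rise, 0.97 at a peak with 27.6 and 28.0 CPM with the combination in JJN3 and KMS11, against 17.3 and 12.7 CPM with DMSO. TNFSF4, the ligand of the costimulatory receptor OX40, also rose, by 0.77 at an internal peak. CD247 had 3 of 12 peaks lower, by log2 changes of -1.1 to -0.90, and its promoter peaks stood at 0.24 and -0.07. FCRL1, an Fc receptor-like protein of B cells, had an internal peak at 38.3 and 41.5 CPM with the combination in JJN3 and KMS11, against 54.9 and 94.7 CPM with DMSO (-0.94 ± 0.19). FCRL5, a myeloma surface antigen, had a distal peak at -1.40 ± 0.38 beside a promoter at -0.02. The FCRL6 promoter stood at -0.115, and neither promoter passed. MEF2D, a transcription factor of activated lymphocytes, had an internal peak at -0.84 ± 0.19 beside a promoter at -0.15, and a peak inside ATF3, a stress-induced AP-1 factor, fell by 0.97 with its main promoter at 0.02. The MEF2D change was -0.56 without the KMS11 combination library and that of ATF3 -0.64 without the JJN3 combination library, both with the call lost. The FCRL6, FCRL5 and TNFSF4 calls were lost without the JJN3 combination, KMS11 DMSO or KMS11 combination library, and that of TNFSF4 also without JJN3 DMSO. The share called was 4.29% for SLAM, Fc receptor-like and CD1 genes, 4.76% of 147 for transcription factor genes and 5.63% of 71 for interferon and inflammation genes. These lie near the 4.79% of all peaks.

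Membrane signalling and kinase genes had 5 peaks higher and 8 lower (9.09% of theirs), and the 1q21 gain list 4 higher and 2 lower of 43 (14%). The share of all peaks was 4.79% (2.11% higher and 2.67% lower). Of the 1q21 calls, 2 of the rises and 1 of the falls lay at IL6R. Complement and adhesion genes had 2 higher and 4 lower of 84 (7.14%) and apoptosis and p53 genes 1 higher of 39 (2.56%). Epidermal differentiation genes had none of 38, with 0 also for pomalidomide. In all, 16 nearest genes or repeat families had called peaks in both directions in 1 comparison.

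Adding GNE-781 to pomalidomide changed 2 peaks on 1q (0.0491%), of which 1 was the PTPN14 rise above, against 0.0112% of all peaks (0.00161% higher and 0.00964% lower), and 349 were at an unadjusted p under 0.05 (8.57%, against 7.4% of all peaks). DESeq2 called 0. Adding pomalidomide to GNE-781 raised 56 and lowered 5 (1.5%), against 1.09% of all peaks (0.999% higher and 0.0948% lower). A test of whether both agents together gave more or less than their log2 changes added up called no peak (0% of all peaks in edgeR, with 137 on 1q, or 3.37%, at an unadjusted p under 0.05, against 2.64% of all peaks).

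The pomalidomide effect differed between the lines at 3 peaks on 1q, against 0.0675% of all peaks (0.0193% higher in JJN3 and 0.0482% lower), and the GNE-781 effect at 1, against 0.00964%. None of the 4 was a promoter peak. The fit took the drugs as additive within a line, so the pomalidomide effect also used the combination against GNE-781 alone. The peak nearest to FMO4, a flavin monooxygenase, had 10.7 CPM with pomalidomide against 14.3 CPM with DMSO in JJN3, and 25.9 against 6.73 CPM in KMS11, a difference in log2 effect of -1.95 ± 0.43 (adjusted p = 0.0293). The intergenic peak nearest to RP11-317P15.4 had 18.0 CPM with GNE-781 against 16.5 CPM with DMSO in JJN3, and 32.0 against 81.3 CPM in KMS11 (1.69 ± 0.35, adjusted p = 0.0386).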

How the data were processed

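The files held 1 table of 62528 peaks with read counts for 8 libraries, deposited by the authors as whole-number counts that were not normalized. Per the submitters' processing notes, the build was GRCh38. The tools they name are R 4.1.2, MACS2 2.1.1.20160309, SAMtools 1.10, Bowtie2 2.3.5.1, cutadapt 2.5 and Trim Galore 0.6.4. Whether reads were shifted for Tn5, how duplicates and multiply mapped reads were treated, and how reads were counted is not given in the sources used here. The deposited table gives 1 common set of peaks, each with a nearest gene.

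The members and gene lists were chosen with earlier results of these data known. Peaks with a mean under 2 CPM (counts scaled to a library of 1e6) were removed (294, of which 9 on 1q). edgeR 4.0.16 quasi-likelihood tests used TMM scaling over all peaks, with line and treatment as terms and 3 residual degrees of freedom (2 for effects by line), and Benjamini-Hochberg adjustment over 62234 peaks. The fit for effects by line took the drugs as additive within a line. The biological coefficient of variation was 0.13. The prior degrees of freedom were 62.8 for peaks and infinite for bins, so a bin's own spread had no weight in its SE or p. Bins used summed promoter counts with the same scaling. Boundaries used limma 3.58.1. CPM are on the scaled library sizes, and a ratio between lines is relative to all peaks. The programs were tested on simulated data.

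Named peaks were those called with 1 sign in both lines, up to 8 with the largest rise and fall and 8 promoters per comparison, all called peaks of listed genes, and genes with several called peaks. For the lines they were every bin, the 1q21 promoters and 6 promoters per direction. Other listed promoters are given as examples chosen after their values were seen. The 20 genes of the 1q21 list had a nearest peak in 16 cases. Over all 9 lists 177 of 218 genes had one, 5 through an older symbol. DESeq2 1.42.0, other scalings and left-out libraries were the alternatives. With 1 library per line and treatment, the 1366628 to 5435673 counts per library limit the precision of weak peaks.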

Additional observations from a re-analysis of the deposited data

Results flagged for a closer look

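At 4 peaks on 1q the drug effect differed between the lines by a test of the difference itself. That test took the drugs as additive within a line, so each effect also drew on the libraries that held the other agent. For pomalidomide the log2 effect in JJN3 minus that in KMS11 was -1.95 at the peak nearest to FMO4, -2.34 at the peak inside PLXNA2 (a semaphorin receptor) and -2.49 at the peak nearest to RP11-2P2.1. For GNE-781 it was 1.69 at the peak nearest to RP11-317P15.4. The PLXNA2 peak had 2.67 CPM with pomalidomide against 15.8 CPM with DMSO in JJN3, and 29.2 against 10.1 CPM in KMS11. With the combination against GNE-781 alone it had 5.82 against 5.77 CPM in JJN3 and 13.5 against 11.6 CPM in KMS11. Its line difference thus came mainly from the libraries without GNE-781. The RP11-2P2.1 peak had 4.0 CPM with pomalidomide against 8.27 CPM with DMSO in JJN3 and 30.9 against 6.73 CPM in KMS11. With the combination against GNE-781 alone it had 6.79 against 8.98 CPM in JJN3 and 15.7 against 6.47 CPM in KMS11. With DESeq2 size factors 2 such calls were made in place of 4.

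In 3 of 46 sets of 4 libraries of a line, 1 library stood apart from the other three by Dixon's criterion, and chance flags about 1 set in 20. The ratio of the gap to the range was 0.869 for the 230 to 235 Mb bin in JJN3, 0.872 for the 150 to 155 Mb bin in KMS11 and 0.877 for the 245 to 250 Mb bin in KMS11, above the 95% critical value for 4 values. The libraries of a set had different treatments.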

How the results depend on the processing

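The arm difference of -0.20 ran from -0.24 to -0.16 with 1 library left out, with an exact permutation p of 0.0571 without any 1 KMS11 library, and from -0.32 to -0.18 under other scalings, no filter, distal peaks and the median over promoter peaks. The number of called bins ran from 17 to 21 at 5 Mb and was 10 with 10 Mb bins, where fewer bins exist. Boundaries called ran from 12 to 13. Distal peaks put the bin before 145 Mb at 0.10 and the 155 to 160 Mb bin at -0.15, and the median over promoter peaks put the 170 to 175 Mb bin at -0.25 and the 185 to 190 Mb bin at 0.058, each against its direction above, and the cause was not tested.

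Drug calls depended on single libraries. With 1 library left out, the lowest and highest counts on 1q were 5 and 90 for pomalidomide, 0 and 4 for GNE-781, 30 and 240 for the combination, 0 and 7 for the combination against pomalidomide and 7 and 74 against GNE-781. A lone library is then assumed to vary like the others. Called bins ran from 0 to 1 for each treatment. DESeq2 called 10 peaks for pomalidomide, 0 for GNE-781, 44 for the combination, 0 for the combination against pomalidomide and 12 against GNE-781. The fit on compared libraries alone called 3 for GNE-781. Effects by line were called at 2 peaks with DESeq2 size factors, an alternative chosen after seeing the data. The fits already pair the libraries, with the line as the block for drugs and the treatment as a term for the lines. The labels give no replicate numbers to pair further. Paired by treatment, the arm difference was -0.20 with an exact sign-flip p of 0.125, the smallest that 4 pairs allow.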
